A study of Mus musculus with 12 samples.

Results

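Collagens are the triple-helical proteins that give the wall of the oviduct its mechanical frame. The 10 collagen genes described here were the fibrillar Col1a2 and Col5a3, the beaded-filament gene Col6a4, the basement membrane genes Col4a5, Col4a6 and Col18a1, the fibril-associated Col12a1, and the transmembrane genes Col13a1, Col23a1 and Col25a1. They were chosen by symbol from the collagens that the study listed as differing among its groups at an overall two-way model P under 0.01, computed on these same arrays. Of 42 collagen genes with a probe set, 16 could be followed across all 12 arrays, and the 10 are among those 16. The choice used all pairwise differences, so the values, calls and adjusted P below describe the genes and are no independent test of any of them. Of the 10, Col12a1 lay nearest to that limit when the two-way model was recomputed, with group means from 9.75 to 11.62. The other 26 collagens could not be located in the arrays other than untreated ESR1KO and are not analysed across the groups here. The study's list was held only in part, so some of the 26 may have passed the limit. None is given from just outside it.

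RNA of the whole oviduct was measured on Affymetrix arrays in 4 groups of female C57BL/6 mice, with 3 arrays in each. ESR1KO mice lacked both copies of the estrogen receptor α gene (ESR1-/-, with or without ZP3Cre), and WT mice were their siblings with 1 floxed and 1 deleted copy (ESR1flox/-, with or without ZP3Cre), so that the controls also carried a deleted allele. The Zp3 promoter drove Cre in the oocyte, which gave a deletion in every tissue of the progeny. ESR1KO and WT oviducts were taken untreated at 23 days of age. PMSG-treated ESR1KO and PMSG-treated WT mice received 5 IU of pregnant mare serum gonadotropin (PMSG), which stimulates ovarian follicles and estradiol secretion, at 23 days and were collected 48 h later. PMSG-treated mice were therefore also 2 days older, and PMSG and age cannot be told apart. Each array held RNA pooled from 3 to 4 mice, and per the study's methods the replicates came from different mice.

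Fibrillar collagens form the tensile fibres of stroma and muscle wall, and type VI collagen forms beaded filaments around cells. Type IV collagen makes the network of basement membranes, to which type XVIII collagen, a heparan sulfate proteoglycan, also belongs. Type XII collagen lies on the surface of fibrils, and types XIII, XXIII and XXV span the plasma membrane and can be shed from it. The oviduct holds a mucosa of ciliated and secretory epithelial cells on a basement membrane, a stroma, and a smooth muscle layer.

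Col4a5 and Col4a6, which encode partner chains of type IV collagen, lie head to head on chromosome X, with 1274 bases between their gene spans in the mouse build GRCm38.p6. Col4a6 spans chrX:141165403-141474095 on the minus strand and Col4a5 spans chrX:141475370-141689236 on the plus strand. The upstream sequence of this gene pair is shown because its members are described side by side below, and that of Col6a4 (chr9:105990318-106096828, minus strand) because it had the largest difference between genotypes of the 10. That of Col1a2 (chr6:4505618-4541543, plus strand) stands for the fibrillar genes. Sequences are those of RefSeq on GRCm38.p6, 5′ to 3′ on the strand of the gene, limited to bases outside the gene span. Capitals mark matches on either strand to GGTCA (an estrogen response element arm), GGGCGG (the GC box) or CCAAT. Col4a5 is chrX:141475169-141475369, Col4a6 is chrX:141474096-141474326, Col6a4 is chr9:106096829-106096941 and Col1a2 is chr6:4505368-4505617.
Col4a5: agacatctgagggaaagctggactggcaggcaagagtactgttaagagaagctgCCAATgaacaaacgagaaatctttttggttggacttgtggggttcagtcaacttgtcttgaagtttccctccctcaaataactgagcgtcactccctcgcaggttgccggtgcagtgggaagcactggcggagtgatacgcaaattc
Col4a6: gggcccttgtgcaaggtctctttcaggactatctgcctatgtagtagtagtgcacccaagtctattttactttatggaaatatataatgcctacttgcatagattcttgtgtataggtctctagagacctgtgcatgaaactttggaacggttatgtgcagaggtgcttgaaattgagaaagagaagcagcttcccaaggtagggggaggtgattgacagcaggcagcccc
Col6a4: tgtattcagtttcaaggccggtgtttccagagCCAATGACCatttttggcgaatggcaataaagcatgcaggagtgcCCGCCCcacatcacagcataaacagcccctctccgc
Col1a2: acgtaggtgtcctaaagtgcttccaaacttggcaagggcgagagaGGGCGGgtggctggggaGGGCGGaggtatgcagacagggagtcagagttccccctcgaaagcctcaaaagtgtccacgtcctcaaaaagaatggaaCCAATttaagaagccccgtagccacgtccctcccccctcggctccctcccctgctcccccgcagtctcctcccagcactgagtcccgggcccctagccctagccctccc
In the printed stretch of Col6a4, CCAAT and the complement of GGTCA share 1 base. The search itself covered the whole 250 bases upstream of the annotated start, part of which is not printed. Of the 10 genes, 9 had a promoter entry. The full estrogen response element, with GGTCA and its complement 3 bases apart, was in 0 of the 9 and in 0.0639% of 32851 promoters of the same length. GGTCA was in 2 (Col6a4 and Col23a1; 35.2% of all promoters), GGGCGG in 8 (32.7%), CCAAT in 6 (33.8%) and the AP-1 word TGANTCA in 0 (6.75%). A match is a description of the letters and not a binding site.

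The values are log2 expression signals after GC-RMA, on which a difference of 1 is a 2-fold change, and a signal under 4 was taken as near background. The 10 genes have 23 probe sets on the array, with more than 1 for every gene but Col13a1. Each gene is described by the 1 probe set that could be followed across the groups. The targeted gene Esr1 had signals of 12.92 to 13.05 in WT, 10.42 to 12.13 in ESR1KO, 12.21 to 12.82 in PMSG-treated WT and 10.11 to 10.62 in PMSG-treated ESR1KO. Where its probe set lies relative to the deleted part is not given in the sources used here, so this is no check of the deletion. ESR1KO replicate 2 held the ESR1KO signal of 12.13, and it also lay nearest to WT on the first principal component of the 1997 probe sets followed across all arrays (-19.8, against -32.9 and -34.5 for the other ESR1KO arrays). PMSG-treated WT replicate 3 scored 134 on the first component of all 45101 probe sets in the 9 arrays other than untreated ESR1KO, against 23.9 and 25.9 for the others of its group. Among the 10 collagens, PMSG-treated WT replicate 3, ESR1KO replicate 3 and PMSG-treated ESR1KO replicate 1 each had the lowest signal of their group for 7 genes. Leaving out PMSG-treated WT replicate 3 moved the log2 differences it enters by a median of 0.21 over the 10 and by at most 0.45 (Col12a1), and leaving out ESR1KO replicate 2 by a median of 0.12 to 0.13 and at most 0.35 (Col1a2).

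A difference between groups of at least 2-fold was called where limma gave it an adjusted P under 0.05. For comparisons with untreated ESR1KO that adjusted P is an upper bound, so calls there are stricter than in the others. Calls in different comparisons therefore cannot be compared directly. Between the genotypes after PMSG, 8 of the 10 collagens were called, 6 higher and 2 lower. Called higher were Col4a5, Col4a6, Col18a1, Col12a1, Col13a1 and Col23a1, and called lower were Col6a4 and Col25a1. In ESR1KO versus WT, 3 were called, all lower: Col1a2, Col5a3 and Col6a4. With PMSG in WT, 2 were called, with Col25a1 higher and Col13a1 lower. In PMSG-treated ESR1KO versus ESR1KO, 0 were called by limma, 7 of 10 had an unadjusted P under 0.05, and 0 were called by the unmoderated two-way model. The share of rows called was 4.48% of all 45101 between the genotypes after PMSG (2.76% higher, 1.72% lower) and 48.3% of the 1997 rows from which the collagens came. It was 18.1% of the 1997 rows in ESR1KO versus WT (9.06% higher, 9.01% lower), 0.251% of all rows in PMSG-treated WT versus WT (0.177% higher, 0.0732% lower, and 3.81% of the 1997) and 0.100% of the 1997 in PMSG-treated ESR1KO versus ESR1KO. Those rows were chosen by the same contrasts as the collagens, so nothing is read from the counts against them.

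**Figure D1:**
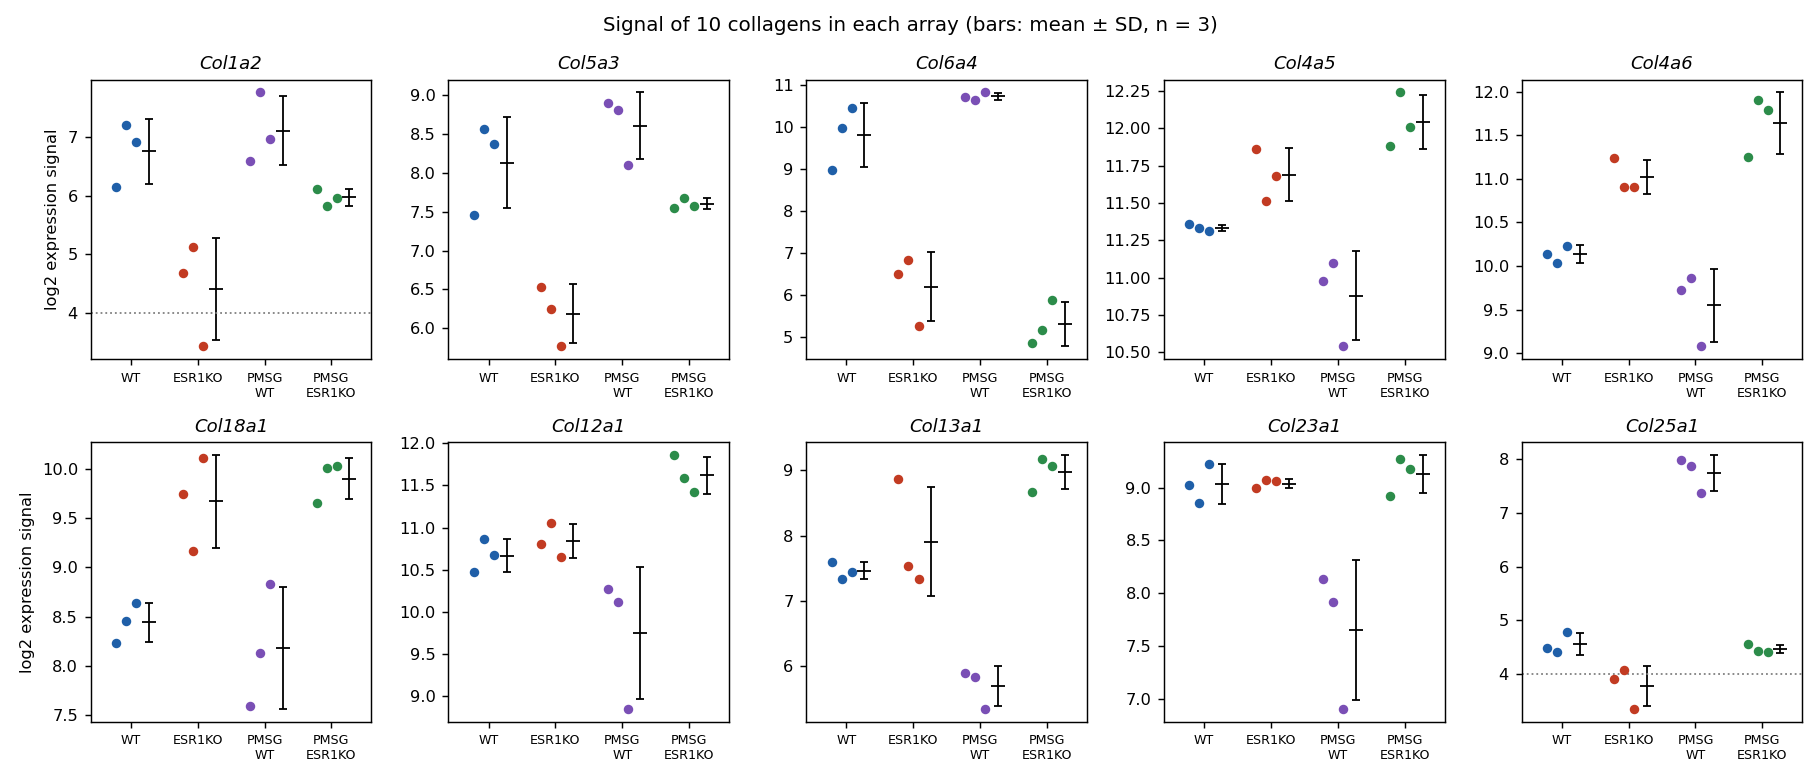
Log2 expression signal (vertical axis, each panel with its own range) of 10 collagens in 12 arrays. Points are single arrays in the order of replicates 1 to 3, black marks are the group mean ± SD (n = 3), and the dotted line is the near-background limit of 4. Col6a4 separates the genotypes most widely, and Col1a2, Col4a5, Col4a6 and Col18a1 also separate them. Col25a1 stands high in PMSG-treated WT alone, and Col13a1 and Col23a1 stand low there, as do Col4a5, Col4a6 and Col12a1.

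Col1a2 encodes the α2 chain of type I collagen, the most abundant fibrillar collagen of connective tissue. Its probe set read 6.14, 7.20 and 6.91 in WT, 4.68, 5.12 and 3.44 in ESR1KO, 6.59, 7.75 and 6.96 in PMSG-treated WT, and 6.11, 5.82 and 5.96 in PMSG-treated ESR1KO. All ESR1KO arrays were below all WT arrays, and replicate 3 of ESR1KO was near background. The ESR1KO mean of 4.41 ± 0.87 (SD, n = 3) was lower than the WT mean of 6.75 ± 0.55, a log2 difference of -2.34 with an SE of 0.44. In a bulk sample such as this, fewer cells of a type and less RNA per cell cannot be told apart. After PMSG the difference between genotypes was -1.13 (SE 0.35) and was not called. The PMSG-treated ESR1KO arrays were all above the ESR1KO arrays, by 1.55 (SE 0.44, not called), whereas those of PMSG-treated WT and WT overlapped. Col1a2 has 3 probe sets on the array. The one followed here, 1446326_at, is annotated to an expressed sequence tag, and the others, 1423110_at and 1450857_a_at, were not followed across groups. In untreated ESR1KO those others read 12.96 to 13.71 and 13.82 to 14.29, so the values here describe 1446326_at and not all Col1a2 mRNA.

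Col5a3 encodes the α3 chain of type V collagen, a minor fibrillar collagen. It read 7.45, 8.56 and 8.37 in WT, 6.53, 6.25 and 5.77 in ESR1KO, 8.90, 8.80 and 8.10 in PMSG-treated WT, and 7.55, 7.68 and 7.57 in PMSG-treated ESR1KO. The groups took the same order as for Col1a2, from PMSG-treated WT at the top to ESR1KO at the bottom, but WT overlapped both PMSG-treated groups. The ESR1KO mean was 6.19 ± 0.38 against 8.13 ± 0.59 in WT, a log2 difference of -1.94 (SE 0.31) or 3.84-fold. After PMSG the difference was -1.0 (SE 0.31), just 2-fold, and was not called. With PMSG the signal differed by 1.41 (SE 0.31) in ESR1KO and by 0.47 (SE 0.31) in WT, with neither called. Of 1827 candidate rows, all among those the study had listed as differing, Col5a3 had the profile nearest to that of Col1a2. Its root-mean-square distance was 0.415 over 12 arrays after centring, where the SD of Col1a2 over the arrays was 1.14. Nrp2, a neuropilin, was almost as near (0.424). The nearest to Col5a3 was Ndrg4 at 0.380, with Cyth4 at the same distance. Without ESR1KO replicate 2 the untreated genotype difference was -2.69 for Col1a2 and -1.97 for Col5a3. By limma, both calls in ESR1KO versus WT were lost without WT replicate 2, WT replicate 3 or ESR1KO replicate 3 (adjusted P 0.0789 to 0.189), and that of Col1a2 also without ESR1KO replicate 1 (0.0964) or any 1 of the PMSG-treated ESR1KO arrays (0.0564 to 0.0648). The difference after PMSG without PMSG-treated WT replicate 3 was -1.20 for Col1a2 and -1.25 for Col5a3. After PMSG, Col5a3 was called lower without WT replicate 1 (adjusted P 0.0467) or PMSG-treated WT replicate 3 (0.0292).

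Col6a4 encodes a long alternative α chain of type VI collagen and differed most between genotypes among the 10. It read 8.98, 9.98 and 10.47 in WT and 6.50, 6.84 and 5.27 in ESR1KO. After PMSG it read 10.73, 10.66 and 10.83 in WT and 4.85, 5.18 and 5.89 in ESR1KO. Every ESR1KO array, with or without PMSG, lay below every WT array. Without PMSG the log2 difference was -3.61 (SE 0.45), or 12.2-fold, and after PMSG it was -5.43 (SE 0.38), or 43.1-fold. PMSG-treated WT arrays were all above WT arrays, by 0.93 (SE 0.38), whereas PMSG-treated ESR1KO differed from ESR1KO by -0.89 (SE 0.45) with overlapping arrays, and neither was called. Leaving out any 1 array kept the genotype difference between -4.02 and -3.14 without PMSG and between -5.72 and -5.20 after it. Without ESR1KO replicate 2 the former was -3.93, and without PMSG-treated WT replicate 3 the latter was -5.39. The gene with the nearest profile was Gp1bb, a platelet glycoprotein subunit, at a distance of 0.587 against an SD of 2.36 for Col6a4 itself. Gp1bb had means near background in ESR1KO (3.61) and PMSG-treated ESR1KO (3.59).

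**Figure D2:**
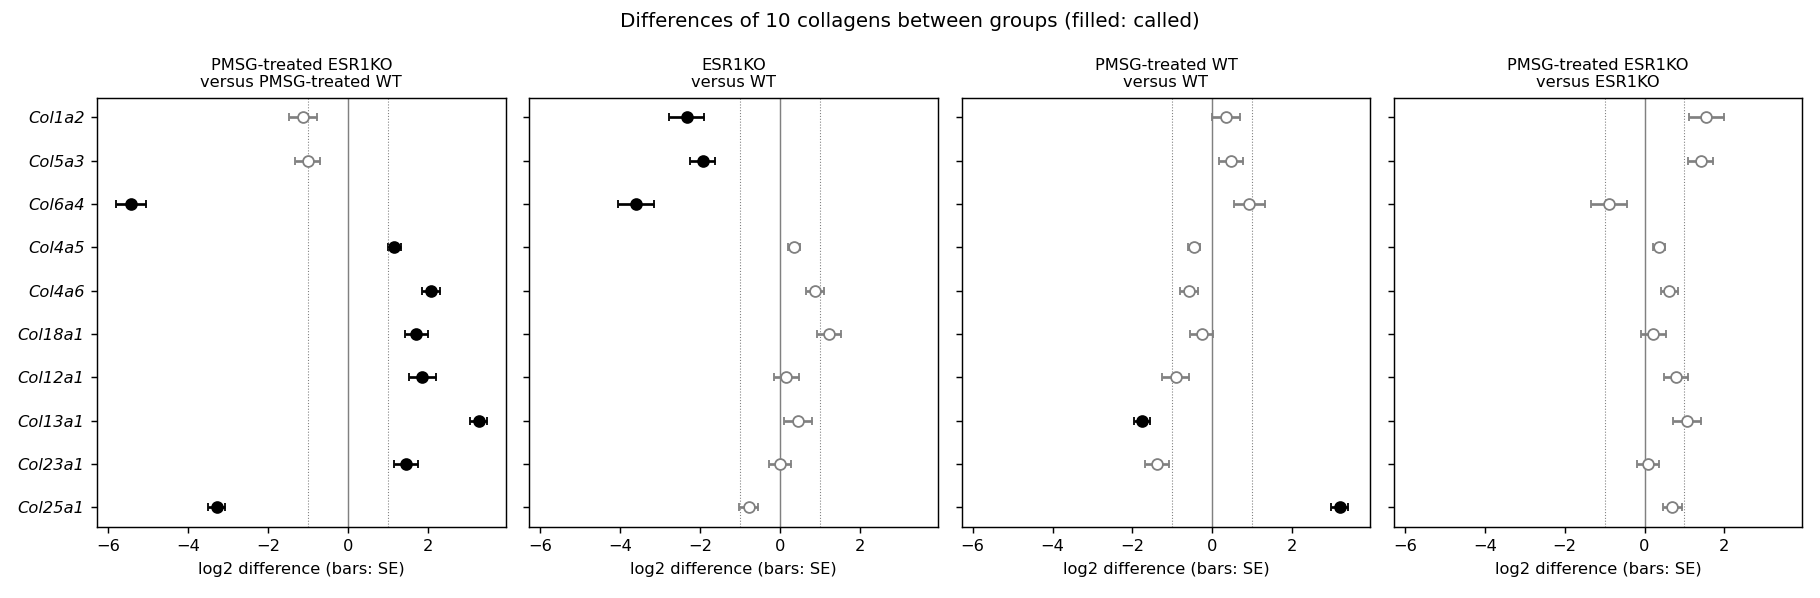
Log2 difference of group means (horizontal axis) of 10 collagens in 4 comparisons, with bars of 1 SE from the limma model. Filled points were called, and dotted lines mark a 2-fold difference. After PMSG, 6 collagens lay to the right and 2 to the left among the called ones, and in ESR1KO versus WT the called ones were Col1a2, Col5a3 and Col6a4.

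Col4a5 and Col4a6, the head-to-head pair shown above, encode the α5 and α6 chains that assemble together in the basement membrane of smooth muscle and some epithelia. Col4a5 read 11.36, 11.33 and 11.31 in WT, 11.86, 11.51 and 11.68 in ESR1KO, 10.98, 11.10 and 10.54 in PMSG-treated WT, and 11.88, 12.24 and 12.01 in PMSG-treated ESR1KO. Col4a6 read 10.14, 10.04 and 10.23 in WT, 11.24, 10.91 and 10.91 in ESR1KO, 9.72, 9.86 and 9.08 in PMSG-treated WT, and 11.25, 11.90 and 11.79 in PMSG-treated ESR1KO. For both genes the 4 groups took the same order without overlap between neighbours, from PMSG-treated ESR1KO through ESR1KO and WT to PMSG-treated WT.

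The differences were larger for Col4a6 than for Col4a5 in each comparison, as point estimates whose difference was not tested. They hold for the 1 of 2 probe sets followed for each gene. In untreated ESR1KO the other Col4a5 probe set, 1425476_at, read 13.12 to 14.2, against 11.51 to 11.86 for the one followed. After PMSG, ESR1KO exceeded WT by a log2 difference of 2.09 (SE 0.23), or 4.26-fold, for Col4a6 and by 1.17 (SE 0.16), or 2.25-fold, for Col4a5. Without PMSG the differences were 0.88 (SE 0.22) and 0.35 (SE 0.16), and neither was called. With PMSG the WT signal differed by -0.58 (SE 0.23) for Col4a6 and -0.46 (SE 0.16) for Col4a5, and the ESR1KO signal by 0.62 (SE 0.22) and 0.36 (SE 0.16), with none called. Without PMSG-treated WT replicate 3, the array that stands apart, the Col4a5 difference after PMSG was 1.00 and fell short of 2-fold, and that of Col4a6 was 1.85 and stayed called. The centred profiles of the pair lay 0.395 apart over the 12 arrays. Other genes lay nearer: Ppap2b, a lipid phosphate phosphatase, to Col4a5 (0.105) and C1ra, a complement protease, to Col4a6 (0.192).

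Col18a1 encodes type XVIII collagen, whose C-terminal fragment is endostatin. It read 8.23, 8.45 and 8.64 in WT, 9.74, 9.17 and 10.11 in ESR1KO, 7.59, 8.13 and 8.83 in PMSG-treated WT, and 9.65, 10.01 and 10.03 in PMSG-treated ESR1KO. All ESR1KO arrays lay above all WT arrays in both conditions, and within each genotype the arrays with and without PMSG overlapped. The difference was 1.72 (SE 0.29), or 3.28-fold, after PMSG, and 1.23 (SE 0.31), or 2.35-fold, without it. Only the former was called, and the adjusted P of the latter (0.14 by limma) is an upper bound. Without PMSG-treated WT replicate 3 the former was 2.04 and the latter was called too, and without ESR1KO replicate 2 the latter was 1.49. The PMSG differences were -0.26 (SE 0.29) in WT and 0.22 (SE 0.31) in ESR1KO. The nearest profile was that of Clcn5, a chloride transporter, at 0.180.

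Other genes of the basement membrane were counted beside these. Of 16 on the array, 5 were followed across the groups (Lama4, Lamb2, Nid1, Nid2 and Agrn), and these too had been chosen by the study on these samples. After PMSG, 4 were called higher in ESR1KO and 0 lower, with a median log2 difference of 1.11 over the 5 against 0.36 over the 1997 rows they came from and 0.01 over all rows. Of those 1997 rows 48.3% were called after PMSG and 18.1% in ESR1KO versus WT. Nothing is therefore read from this count or the list counts that follow. Nid2, a nidogen that links laminin to type IV collagen, averaged 10.20 ± 0.09 (SD, n = 3) there against 8.47 ± 0.35 for PMSG-treated WT, which is 1.72 higher (SE 0.18). Agrn, the heparan sulfate proteoglycan agrin, differed by 1.41 (SE 0.23) and Lamb2, the laminin β2 chain, by 1.11 (SE 0.21). Without PMSG none of these passed, and Lama4, the laminin α4 chain, was the 1 called, lower in ESR1KO by -2.41 (SE 0.46) with an ESR1KO mean near background at 2.44 ± 0.10.

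Col12a1 encodes type XII collagen, which binds to the surface of type I fibrils. It read 10.48, 10.86 and 10.68 in WT and 10.81, 11.05 and 10.65 in ESR1KO, which overlapped. After PMSG it read 10.27, 10.12 and 8.85 in WT and 11.86, 11.59 and 11.42 in ESR1KO. PMSG-treated WT arrays were all below WT arrays and PMSG-treated ESR1KO arrays all above ESR1KO arrays. The genotype difference was 0.16 (SE 0.31) without PMSG and 1.87 (SE 0.34), or 3.66-fold, after it. Replicate 3 of PMSG-treated WT was 1.35 below the mean of the other 2 arrays of its group, and without it the difference after PMSG was 1.42 and the PMSG difference in WT was -0.47 in place of -0.92. The call after PMSG was lost with the unmoderated two-way model, at an adjusted P of 0.061. Ikzf1, a lymphoid transcription factor, had the nearest profile, at 0.233.

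Col13a1 encodes a transmembrane collagen of cell adhesion sites and of the neuromuscular junction. It read 7.59, 7.33 and 7.45 in WT, 8.87, 7.53 and 7.33 in ESR1KO, 5.90, 5.84 and 5.35 in PMSG-treated WT, and 8.67, 9.17 and 9.07 in PMSG-treated ESR1KO. PMSG-treated WT arrays lay below all others, and ESR1KO replicate 1 was level with the PMSG-treated ESR1KO arrays while the other 2 ESR1KO arrays were level with WT. After PMSG the genotypes differed by 3.28 (SE 0.21), or 9.69-fold, and without PMSG by 0.45 (SE 0.35). PMSG-treated WT was lower than WT by a log2 difference of -1.76 (SE 0.21), or 3.39-fold, a call that was lost by limma without any 1 of the WT arrays (adjusted P 0.0709 to 0.107) or without PMSG-treated ESR1KO replicate 3 (0.0582). In ESR1KO the PMSG difference was 1.06 (SE 0.35) with overlapping arrays, and 1.54 without ESR1KO replicate 1. Without that array the untreated genotype difference was -0.03. Without PMSG-treated WT replicate 3 the difference after PMSG was 3.10 and the PMSG difference in WT -1.59. The nearest profile was that of Kcna5, a voltage-gated potassium channel, at 0.368.

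Col23a1 likewise encodes a transmembrane collagen. It read 9.03, 8.86 and 9.23 in WT, 9.0, 9.07 and 9.06 in ESR1KO, 8.13, 7.92 and 6.90 in PMSG-treated WT, and 8.92, 9.27 and 9.18 in PMSG-treated ESR1KO. The WT, ESR1KO and PMSG-treated ESR1KO arrays overlapped, with means of 9.04, 9.04 and 9.13, and PMSG-treated WT lay below them all at 7.65 ± 0.66 (SD, n = 3). The genotype difference was 1.47 (SE 0.30), or 2.78-fold, after PMSG and 0.00 (SE 0.27) before it. The PMSG difference was -1.39 (SE 0.30) in WT, not called, and 0.08 (SE 0.27) in ESR1KO. Without PMSG-treated WT replicate 3, the difference after PMSG was 1.10 and the PMSG difference in WT was -1.01, which was then called. The call after PMSG was lost without PMSG-treated ESR1KO replicate 2 or 3, at adjusted P of 0.0741 and 0.0824 by limma, with only the 6 arrays compared (0.0724) and with the unmoderated two-way model (0.0756). The nearest profile was that of Igfbp3, which encodes an insulin-like growth factor binding protein, at 0.145.

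Col25a1 encodes another transmembrane collagen, found in neurons and in developing muscle. It read 4.48, 4.42 and 4.79 in WT, 3.91, 4.08 and 3.35 in ESR1KO, 7.99, 7.88 and 7.38 in PMSG-treated WT, and 4.56, 4.44 and 4.41 in PMSG-treated ESR1KO. It was the reverse of Col13a1 and Col23a1, with PMSG-treated WT arrays above all others and the other groups close to background. PMSG-treated WT exceeded WT by a log2 difference of 3.19 (SE 0.22), or 9.11-fold, and exceeded PMSG-treated ESR1KO by 9.70-fold (log2 difference of ESR1KO minus WT -3.28, SE 0.22). Both fold sizes are taken against signals close to background and are therefore uncertain. The PMSG difference in ESR1KO was 0.69 (SE 0.24) and the untreated genotype difference -0.78 (SE 0.24), and neither was called. The calls stayed under the omission of each array in turn, with the difference between genotypes after PMSG from -3.46, without PMSG-treated WT replicate 3, to -3.16. Pak3, a kinase of neurons, had the nearest profile at 0.321, with means near background in ESR1KO (3.41) and PMSG-treated ESR1KO (3.61).

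**Figure D3:**
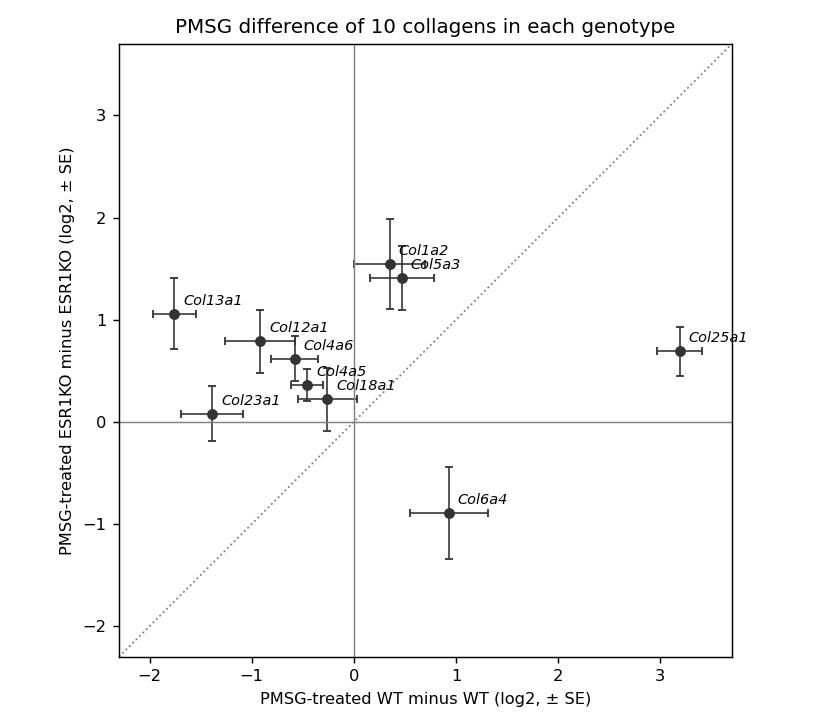
PMSG-treated minus untreated log2 signal of 10 collagens in ESR1KO (vertical axis) against that in WT (horizontal axis), with bars of 1 SE. On the dotted line the difference would be equal in both genotypes. Of the 10, 8 lie above the line, and Col25a1 and Col6a4 lie below it.

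Across the 10 genes, the PMSG difference was larger in ESR1KO than in WT for 8 and smaller for Col6a4 (-1.82, SE 0.63) and Col25a1 (-2.50, SE 0.34). The genotype by PMSG term, which is that difference, was largest upward for Col13a1 at 2.82 (SE 0.50) and Col12a1 at 1.71 (SE 0.44). For 0 of the 10 was the term called by limma at an adjusted P under 0.05, against 0.651% of the 1997 rows, although 7 had an unadjusted P under 0.05. The unmoderated two-way model also called 0. Medians over the 10 were 1.32 between the genotypes after PMSG, 0.08 between them without it, -0.36 for PMSG in WT and 0.66 for PMSG in ESR1KO. The medians of the 1997 rows were 0.36, 0.15, -0.03 and 0.00 in the same order, and those of all 45101 rows 0.01 for the first and the third. In the first comparison the arrays of the groups did not overlap for 10 of 10, against 93.1% of the 1997 rows and 19.6% of all rows. They did not overlap for 7 in ESR1KO versus WT (78.5% of the 1997 rows), 7 in PMSG-treated WT versus WT (53.0% of the 1997 rows and 13.5% of all rows) and 6 in PMSG-treated ESR1KO versus ESR1KO (21.5% of the 1997 rows). The 1997 rows were chosen like the 10, so nothing is read from these counts.

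The centred profiles of 8 genes formed 2 sets that lay closer within than between. Col4a5, Col4a6, Col18a1, Col12a1, Col13a1 and Col23a1 lay 0.393 to 0.847 apart. Their own SDs over the arrays ran from 0.46 (Col4a5) to 1.24 (Col13a1), so some of these distances exceed the SD of a member. Col1a2 and Col5a3 lay 0.415 apart and at least 1.26 from each of those 6. Col25a1 was nearest to Col5a3, at 1.06, and Col6a4 to Col25a1, at 1.64. Genes with a larger spread lie farther from all others, so these distances describe the 10 and are not independent of how they were chosen.

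The other 6 collagens followed across all arrays were Col14a1, Col9a2, Col8a2, Col4a3, Col11a1 and Col5a1. Between the genotypes after PMSG, 2 were called, both higher in ESR1KO: Col14a1, a fibril-associated collagen like Col12a1, by 2.47 (SE 0.26), and Col9a2, a cartilage collagen chain, by 2.19 (SE 0.50). Col14a1 averaged 11.47 ± 0.02 (SD, n = 3) against 9.0 ± 0.60. Col9a2 averaged 7.99 ± 0.43 against 5.81 ± 1.07. Without PMSG-treated WT replicate 3 these differences were 2.14 and 2.80. In ESR1KO versus WT, Col14a1 differed by 0.56 (SE 0.24) and Col9a2 by 2.65 (SE 0.54), and neither was called. For Col9a2 the adjusted P by limma was 0.0516 there, which is an upper bound. In PMSG-treated WT versus WT, Col11a1, which encodes a minor fibrillar chain, was called higher by 2.95 (SE 0.32), and by 2.58 without PMSG-treated WT replicate 3. Col11a1 was also higher in ESR1KO than in WT, by 1.66 (SE 0.36), which was not called. Col4a3, another type IV chain, differed by 0.75 (SE 0.20) after PMSG, Col8a2, of the type VIII network, by 0.98 (SE 0.21), and Col5a1, the main type V chain, by -0.23 (SE 0.14), and none was called. Of the 42 collagen genes, 29 had a mean signal of at least 4 in untreated ESR1KO, among them 15 of the 16 followed and 14 of the 26 not followed. Col25a1 was the exception among the 16.

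The genes that modify, process, bind and degrade collagen were described by the members that could be followed, which the study had chosen on these samples. Of the 1997 rows they came from, 48.3% were called after PMSG and 18.1% in ESR1KO versus WT. Of 20 genes for chain modification, folding and secretion, 1 was followed. Plod2, a lysyl hydroxylase, was lower in ESR1KO after PMSG, at a log2 difference of -2.46 (SE 0.47). Of 10 genes for processing and cross-linking, 3 were followed and 2 were called higher, Adamts3, a procollagen N-propeptidase, by 1.76 (SE 0.19) and the lysyl oxidase Loxl1 by 1.14 (SE 0.18), with Lox at 0.15 (SE 0.12). Without PMSG, Adamts3 alone of these 3 was called, higher by 1.15 (SE 0.23). Its mean was 3.7 in WT and 4.02 in PMSG-treated WT, so both of its differences start from a signal close to background. Of 12 collagenases, gelatinases and inhibitors, 2 were followed and both were called higher, the gelatinase Mmp9 by 1.49 (SE 0.26) and the membrane-type protease Mmp16 by 1.15 (SE 0.18). Of 9 receptors, 2 were followed and 0 were called by limma, with the discoidin receptor Ddr2 at 0.78 (SE 0.11, under 2-fold) and the integrin chain Itga1 at -0.52 (SE 0.24).

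Of 15 collagen-binding proteoglycans and partners, 8 were followed and all were called after PMSG, 3 higher and 5 lower in ESR1KO, with a median of -1.18. Of the 1997 rows from which they came, 48.3% were called after PMSG and 18.1% in ESR1KO versus WT. Fibromodulin (Fmod), a small proteoglycan on fibrils, was higher by 3.68 (SE 0.19), or 12.8-fold. Asporin (Aspn), of the same family, was lower by a log2 difference of -2.95 (SE 0.37), and fibronectin (Fn1), on which fibrils are laid down, by -2.71 (SE 0.14). Without PMSG, 3 of the 8 were called: Fmod higher, Lum and Fn1 lower.

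Markers of the cells of the oviduct were described by the members that could be followed, which the study had chosen on these samples. Of the 1997 rows they came from, 48.3% were called after PMSG and 18.1% in ESR1KO versus WT. Nothing is read from the number of markers called. Of 7 fibroblast or stromal markers, 3 were followed. Pdgfra was called higher and Lum lower in ESR1KO in both conditions, the remaining one was Col1a2 itself, and the log2 of their summed signal was 12.99 to 13.26 in WT, 13.04 to 13.73 in ESR1KO, 12.88 to 13.22 in PMSG-treated WT and 13.78 to 13.97 in PMSG-treated ESR1KO. Pdgfra carried most of that sum, with means of 12.09 to 13.76, and the median difference of the list ran the other way, at -2.34 without PMSG and -1.13 after it, both the value of the Col1a2 probe set described above. Of 7 smooth muscle markers the 1 followed, Actg2, was 11.78 to 12.59 in WT, 9.20 to 10.52 in ESR1KO, 12.42 to 12.77 in PMSG-treated WT and 9.94 to 11.89 in PMSG-treated ESR1KO, and was called lower in ESR1KO without PMSG. Of 5 endothelial markers, 3 were followed (Pecam1, Kdr and Emcn), with summed values of 9.86 to 10.28 in WT, 8.0 to 8.92 in ESR1KO, 9.65 to 9.98 in PMSG-treated WT and 9.25 to 9.53 in PMSG-treated ESR1KO. Pecam1 and Emcn were called lower in ESR1KO than in WT, and Pecam1 also after PMSG. Of 5 mesothelial markers the 1 followed, Lrrn4, was 8.42 to 9.22, 10.16 to 10.31, 8.66 to 9.76 and 10.52 to 10.66 in the same order. The secretory, ciliated, leukocyte, adipocyte and ovarian lists had 0 members that could be followed. In untreated ESR1KO all 5 secretory and all 5 ciliated markers had a signal of at least 4. So did 3 of 6 leukocyte, 1 of 3 adipocyte and 2 of 5 ovarian markers on the array. Those of the last 3 lists under 4 were Cd3e, Cd79a, Itgam, Adipoq, Lep, Fshr, Amh and Cyp17a1. The part that cell make-up plays in the collagen values was not tested.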

How the data were processed

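The authors deposited log2 signals from Partek 6.6, where GC-RMA corrected the background before quantile normalization and median polish, with no detection calls. They were used unchanged. Only the columns of untreated ESR1KO match the listed probe set names, whereas the remaining 9 share a different order of rows, which could not be restored as a whole. Rows were therefore located through the fold changes and P-values of a supplementary table of the study, used only as a key. That table was held in part. All its 1997 rows held were located, at a largest log2 distance of 8.76e-05, and 75 had more than 1 candidate within the P-value limit, of which the closest was taken. The symbol, not used as key, was equal for 1896 of the 1903 rows with one (2 after shuffling) and for all 16 collagens.

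The genotype difference after PMSG and the PMSG difference in WT were fitted with limma 3.58.1 (R 4.3.3, functions lmFit and eBayes, variance trend on) over 45101 rows of those 9 columns. The comparisons that need untreated ESR1KO, with the genotype by PMSG term, used the located rows of 12 arrays, with the prior of the former fit and Benjamini-Hochberg adjustment as for 45101 tests, so their adjusted P is an upper bound. The term was called on adjusted P alone. Fits were tested on simulated data. The number of arrays (3 per group) limits the precision.

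The 10 collagens, the gene lists and the tests were chosen with earlier results of these data known. Named besides the 10 were located collagens, up to 3 called members of each list with the largest difference after PMSG, the gene nearest in profile to each collagen, and Esr1. Ddr2, Itga1, Lox, Lama4 and the markers were named outside that rule, after their values were seen.

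The fits were repeated as the unmoderated two-way model of the methods, without the variance trend, on rows with a mean signal of 4 or more, after another quantile normalization, with replicate number as a block, with no fold minimum, on just the 6 arrays of a comparison, and omitting each array.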

Additional observations from a re-analysis of the deposited data

Results flagged for a closer look

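For 4 of the 16 collagens followed, every PMSG-treated WT array was lower than every WT array. In the same 4, every PMSG-treated ESR1KO array was higher than every ESR1KO array. The pattern was found in 3.66% of the 1997 located rows, which were chosen by the same contrasts, so nothing is read from the count. The lowest PMSG-treated ESR1KO array was barely above the highest ESR1KO array for Col4a5 (11.88 against 11.86) and Col4a6 (11.25 against 11.24). The PMSG difference in ESR1KO minus that in WT was 0.81 on the log2 scale for Col4a5, 1.21 for Col4a6, 1.71 for Col12a1 and 1.91 for Col14a1. The genotype by PMSG term was not called by limma for any of these 4. Without PMSG-treated WT replicate 3 the values were 0.65, 0.97, 1.26 and 1.58.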

How the results depend on the processing

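Of 700 log2 differences recomputed for the 10 collagens under the alternatives, 691 moved by less than 1 SD of the replicates, 9 moved by more (all of Col12a1, Col13a1 or Col23a1 without PMSG-treated WT replicate 3 or ESR1KO replicate 1), and 0 called ones reversed. Many of the 700 could not move. Leaving out an array outside a pairwise comparison cannot change its difference, and neither can the replicate block in these balanced groups. The 691 therefore overstates how stable the values are. In ESR1KO versus WT the 3 calls became 1 (Col6a4) with the unmoderated model and 0 with only the 6 arrays compared, and 1 to 4 with 1 array left out. In PMSG-treated WT versus WT the 2 calls became 1 (Col25a1) with the unmoderated model, with the replicate block and with only the 6 arrays compared, and 1 to 3 with 1 array left out. The genotype by PMSG term, called for 0, was called for 1 (Col25a1) with no variance trend, on rows with a mean signal of 4 or more and with quantile normalization repeated, and for 0 to 1 with 1 array left out (Col13a1 without ESR1KO replicate 1, Col25a1 without PMSG-treated WT replicate 3). The 8 calls between genotypes after PMSG became 6 with the unmoderated model (without Col12a1 and Col23a1) and 7 with only the 6 arrays compared (without Col23a1). With 1 array left out they were 7 to 9, and those of the PMSG difference in ESR1KO 0 to 0. The cause was not tested.

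Same-numbered arrays deviated together at over 0.1 in 6 of 18 pairs (-0.114 to 0.265). With 3 arrays per group, such values cannot decide whether the numbers pair the arrays. The block changed no other call of the 10. Over all rows, PMSG-treated WT versus WT gave 113 calls, 19 with the unmoderated model, 179 with a mean signal of at least 4, 46 with the replicate block, 36 with only the 6 arrays compared, and 41 to 346 with 1 array left out. The genotype difference after PMSG gave 2022, 3065 with no fold minimum, 1255 with the unmoderated model, 1313 with only the 6 arrays compared and 1248 without PMSG-treated ESR1KO replicate 3. ESR1KO versus WT gave 361 of the located rows, 138 with the unmoderated model, 143 with only the 6 arrays compared and 101 to 502 with 1 array left out. Calls for all collagen genes of the array were not run, since most rows could not be located.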
